A study of Mus musculus with 63 samples.

Results

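The comparison described here is that of intestinal organoids 7 days after deletion of Cdk8 with their vehicle-treated counterparts, 6 of the 63 libraries of the series: 3 treated with 4-hydroxytamoxifen (4-OHT) and 3 with ethanol (EtOH), selected by treatment and day in the labels of the time-course table. The study asked what the Mediator kinases CDK8 and CDK19 do in the intestinal epithelium, and sequenced polyA RNA from organoids and isolated epithelium. Organoids are cultures grown from small intestinal crypts of C57BL/6 mice, here with Noggin, R-spondin and EGF in the medium. Both groups carried the VillinCreERT2 transgene, 2 floxed copies of Cdk8 (Cdk8 fl/fl) and the Cdk19 knockout allele on both chromosomes (Cdk19-/-). One group received 100 nM 4-OHT for 24 hours, which lets the Cre recombinase act in cells that use the Villin promoter, that is, the epithelium, and the other received EtOH. By their labels all 6 libraries thus lacked Cdk19, and the groups differed in Cdk8 and in exposure to 4-OHT with active Cre. The effect of losing CDK8 and that of 4-OHT with active Cre cannot be told apart within this comparison. The labels do not say whether the 3 libraries of a group came from separate cultures or animals. Each p-value measures the spread between libraries within groups, pooled over all days of the time course, and this spread may be technical.

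Reads had been counted per gene by the authors, and the library totals ran from 19879016 to 20771513 counts. Of 54752 genes in the table, 15447 had enough counts to be tested with edgeR's quasi-likelihood test in a fit of all 24 libraries of the time course (EtOH and 4-OHT at days 3, 5, 7 and 10). A gene was called changed when its Benjamini-Hochberg adjusted p was under 0.05 and its fold change over 1.5. Adjusted p-values below come from this test unless another is named, fold changes are 4-OHT relative to EtOH on the log2 scale with their standard error (SE), and per-library values are counts in the order of replicates 1, 2 and 3. At day 7, 2820 genes were called (18.3%), 1391 of them higher (9.00%) and 1429 lower (9.25%) after 4-OHT, and the median log2 fold change over all genes tested was -0.01. Groups that did not overlap were more common than calls (49.6% of genes): 25.2% of genes had all 4-OHT libraries above all EtOH libraries and 24.4% had them below.

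Treatment was the main axis among the 6 libraries, with 58.1% of the variance on the first principal component, and 4-OHT replicate 3 lay nearest to the EtOH libraries. The 8 epithelial markers summed to 9740 to 10000 CPM (counts scaled to a common library size) in EtOH and 11200 to 11800 CPM in 4-OHT libraries, with all 8 detected. One library stood apart. EtOH replicate 2 held transcripts of mesenchymal cells: Col1a1, a fibrillar collagen chain, had 11, 531 and 10 counts in EtOH and 14, 12 and 14 in 4-OHT libraries, and the sum of the 10 mesenchymal markers was 47.0 CPM in that library, 5.14 and 5.69 CPM in the other EtOH libraries and 7.66 to 9.16 CPM after 4-OHT. Col1a1 was called lower at day 7 (log2 fold change -3.69 ± 1.09 SE, adjusted p = 0.0105), but without EtOH replicate 2 its log2 fold change was 0.39 with an adjusted p of 0.623, so no statement is drawn from it. Without that library 2829 genes were called at day 7. Immune markers summed to 3.26 to 3.66 CPM in EtOH and 5.82 to 8.19 CPM in 4-OHT libraries, with 6 of 12 genes at 0 throughout, and endothelial markers to 0.544 to 1.06 and 1.33 to 2.16 CPM. Of these markers Itgam, an integrin of myeloid cells, had 57, 50 and 65 counts in EtOH and 97, 140 and 110 in 4-OHT libraries and was called higher (1.08), as were the mesenchymal Pdgfrb (75, 86 and 85 against 107, 151 and 130 counts, 0.73) and the endothelial Tek (6, 5 and 5 against 14, 19 and 16, 1.66), while Ptprc, the pan-leukocyte marker, had 2 counts in 1 library and 0 in the others. Ptprc is named for its value. Other markers of these lists went the other way. Mesenchymal Pdgfra had 7, 8 and 10 counts in EtOH and 6, 2 and 4 in 4-OHT libraries and was not called. Endothelial Pecam1, below the filter, had 8, 4 and 4 against 4, 3 and 2. The part of these transcripts in the results below was not tested.

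The intestinal epithelium is renewed from LGR5+ stem cells at the crypt base, and their daughters become absorptive enterocytes or, under the transcription factor ATOH1, secretory cells (Paneth, goblet, tuft and enteroendocrine cells). Wnt signals keep crypt cells dividing and Paneth cells in place, while Notch signals through HES1 restrain ATOH1. CDK8 and CDK19 are alternative kinases of a module of Mediator (with CCNC, MED12 or MED12L, and MED13 or MED13L) that modulates transcription by RNA polymerase II, including that of Wnt and interferon target genes. In bulk RNA of this kind, fewer cells of a type and less RNA per cell cannot be told apart.

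None of the 6 tested genes of the kinase module was called at day 7 by edgeR, DESeq2 or limma-voom. In edgeR 3 had an unadjusted p under 0.05, and the same 3 an adjusted p under 0.05, missing only the fold threshold. Of all 15447 genes tested, 6982 had such an adjusted p. Cdk8 itself (chr5:146231230-146302874, mm10) had 984, 965 and 989 counts in EtOH and 845, 832 and 891 in 4-OHT libraries. All 4-OHT values lay below all EtOH values, but the difference was small (log2 fold change -0.12 ± 0.07 SE, adjusted p = 0.159). These counts were summed over the whole gene, and the part of the transcript that recombination removes was not counted on its own, so they do not check the deletion. Cdk19 had 774, 801 and 782 counts in EtOH and 847, 946 and 949 in 4-OHT libraries (0.29), in lines labelled as knockouts of the gene, and the same limit holds. Med13 was the member with the largest difference (log2 fold change 0.45 ± 0.09 SE, adjusted p = 7.96e-05), under the fold threshold. Med13l (-0.24), Ccnc (-0.04) and Med12 (-0.0022) were not called, and Med12l, with 3 counts in all 6 libraries together, was below the filter.

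The largest rises among genes with a mean of at least 50 counts in the higher group were led by genes that interferon induces. Xaf1, a pro-apoptotic interferon target, had 0, 1 and 5 counts in EtOH and 39, 65 and 72 in 4-OHT libraries (log2 fold change 4.86 ± 0.48 SE, adjusted p = 2.13e-09). Oas3 and Oasl2, members of the 2'-5' oligoadenylate synthetase family that senses double-stranded RNA, rose by 4.41 ± 0.36 and 4.27 ± 0.28, and Ifi27l2a (3.96) and Rtp4 (3.54), also interferon targets, were in the same 10. The other 5 were Acacb, the acetyl-CoA carboxylase that restrains fatty acid oxidation (9, 2 and 19 against 108, 276 and 208 counts, 4.35 ± 0.43), Chrna4, a nicotinic acetylcholine receptor subunit (37, 38 and 44 against 435, 573 and 652, 3.87 ± 0.22), the adhesion receptor Adgrd1 (3.86), Gm5431 (3.98) and Olfr1396 (3.94). In all 10 genes every 4-OHT library lay above every EtOH library, as in 25.2% of all genes. The 10 were picked as the largest rises in these same libraries, so this is no separate support. The size of some rises rested on 1 library: Xaf1 had 6.63 and Acacb 5.21 without EtOH replicate 3, Oas3 5.06 without EtOH replicate 2, and Adgrd1 4.56 without EtOH replicate 1 and 3.26 without 4-OHT replicate 2. Olfr1396 overlaps Olfr56, and Rtp4 overlaps Masp1, on the opposite strand, and since the sources used here do not say whether counting used strand, those reads may belong to either gene.

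Among the 10 largest falls, leaving Col1a1 aside, Enpp7, an alkaline sphingomyelinase of the brush border, had 1373 to 1735 counts in the 3 EtOH and 154 to 229 in the 4-OHT libraries (log2 fold change -2.94 ± 0.31 SE, adjusted p = 6.22e-07). Nox1, the superoxide-generating oxidase of the epithelium, had 585, 351 and 362 and 62, 58 and 78 counts (-2.64 ± 0.35), although its locus overlaps Arl13a and Cstf2 on the other strand. Pla2g2a, a bactericidal phospholipase of Paneth cells, had 714, 685 and 677 and 108, 110 and 129 counts (log2 fold change -2.51 ± 0.14 SE, adjusted p = 1.73e-13). For each of these 3 genes the groups did not overlap. Krtap3-1 (-3.41), Prl2c3 (-3.40), Gm6831 (-2.78), Ptgds, a prostaglandin D synthase (-2.69), the pseudogene Mup-ps23 (-2.69) and Nrep (-2.56) made up the rest, and their groups did not overlap either. Of all genes 24.4% lay below in this way, and the falls too were picked in these same libraries. Prl2c3 had -4.02 without 4-OHT replicate 2.

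Paneth cell transcripts were lower throughout. All 7 tested effector genes of this cell, which guards the crypt base with antimicrobial proteins, fell, against 9.25% of all genes, and their median log2 fold change was -1.57. Lyz1, the lysozyme that marks Paneth cells, had 75503, 63259 and 69846 counts in EtOH and 19857, 21233 and 23193 in 4-OHT libraries. All 4-OHT libraries lay far below all EtOH libraries (log2 fold change -1.63 ± 0.11 SE, adjusted p = 3.6e-11). Itln1, a lectin of the granules, fell by 1.57 ± 0.07 on the log2 scale, with 18060, 15841 and 16874 against 5164, 5529 and 5612 counts, and Mptx1, a pentraxin, by 2.43 ± 0.30. Ang4, an antimicrobial ribonuclease (-1.17 ± 0.12), and Mmp7, the protease that activates alpha-defensins (-0.91 ± 0.10), fell less. For all 7 genes the groups did not overlap.

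The alpha-defensins, the peptide family that MMP7 matures, moved the same way: 15 of the 22 in the table were tested, 13 fell, none rose and the median was -1.46. Defa24, the most counted of those named here, had 11989, 10230 and 11691 counts in EtOH and 4276, 4188 and 4523 in 4-OHT libraries (log2 fold change -1.31 ± 0.08 SE, adjusted p = 6.65e-13), while Defa20 (-2.04 ± 0.21), Defa2 (-1.91 ± 0.29), Defa34 (-1.83 ± 0.19) and Defa28 (-2.30 ± 0.54) had larger log2 fold changes at lower counts, that of Defa28 being -3.79 without 4-OHT replicate 3. The genes of this family are near-identical in sequence, so the assignment of reads among them is uncertain, and their number is not a number of independent observations.

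Tuft cells, chemosensory cells that signal to the immune system, had lower levels of most measured markers, and their list had the lowest median of the lists described (-1.96): of 15 genes tested 10 fell, 1 rose and 4 were not called, and 4 more were below the filter. Rgs13, a regulator of G protein signalling, had 35, 39 and 52 counts in EtOH and 7, 2 and 3 in 4-OHT libraries (log2 fold change -3.28 ± 0.44 SE, adjusted p = 4.47e-07). Sh2d7 had 35, 30 and 27 and 11, 1 and 2 counts (-2.61 ± 0.45) and Sh2d6 55, 61 and 24 and 10, 9 and 8 (-2.29 ± 0.32), each without overlap between the groups. Without 4-OHT replicate 1 the values of Rgs13 and Sh2d7 were -3.96 and -4.20. These are low counts, and with a filter of at least 10 counts in every library only 1 tuft gene stayed called lower.

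Of 17 tested genes of goblet cells, which make mucus, 6 fell, 1 rose and 10 were not called, with a median of -0.42. Over all genes 9.25% fell and 9.00% rose. The chemokines Ccl6 and Ccl9 led the falls: Ccl6 had 1225, 705 and 816 counts in EtOH and 151, 197 and 161 in 4-OHT libraries (log2 fold change -2.36 ± 0.28 SE, adjusted p = 1.7e-06), and Ccl9 fell by 2.02 ± 0.16. Muc2, the gel-forming mucin, had 4852, 4588 and 3675 and 5092, 5392 and 4290 counts, overlapping groups that did not pass the test (log2 fold change 0.24 ± 0.21 SE, adjusted p = 0.373), and neither did Tff3, the trefoil peptide secreted with it (-0.13). Sytl2, a granule docking protein, was called lower (-0.73 ± 0.10) and Ramp1, a receptor-modifying protein, higher (1.28 ± 0.30). None of the 6 tested enteroendocrine factors was called by edgeR, DESeq2 or limma-voom, and 0 had an unadjusted p under 0.05 in edgeR. Neurog3, the factor that starts this lineage, had 217, 253 and 290 and 243, 237 and 243 counts (0.00). Of 17 hormone and granin genes only 4 were tested, and 13 had too few counts. Reg4, a lectin of these cells, was the 1 called lower (-0.84 ± 0.11).

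Transcription factors of the secretory lineage were lower as well: 9 of 15 fell, none rose and the median was -0.63. Bhlha15 (Mist1), which builds the secretory apparatus, had 627, 562 and 620 counts in EtOH and 148, 174 and 193 in 4-OHT libraries (log2 fold change -1.74 ± 0.10 SE, adjusted p = 2.59e-14). Atoh1, the factor that commits cells to the lineage, had 629, 684 and 636 and 293, 358 and 331 counts (log2 fold change -0.92 ± 0.08 SE, adjusted p = 8.04e-11). Both pairs of groups were separate, and the fall of Bhlha15 was the larger. Myb (-1.19 ± 0.10), a crypt transcription factor, Hopx (-1.14 ± 0.09) and Sox9 (-0.92 ± 0.09), which Paneth cells need, were also called lower. Spdef, which matures goblet and Paneth cells, had a small difference under the fold threshold (log2 fold change -0.49 ± 0.09 SE, adjusted p = 4.6e-05), and Xbp1, of the unfolded protein response, went the other way (0.21, not called).

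**Figure D1:**
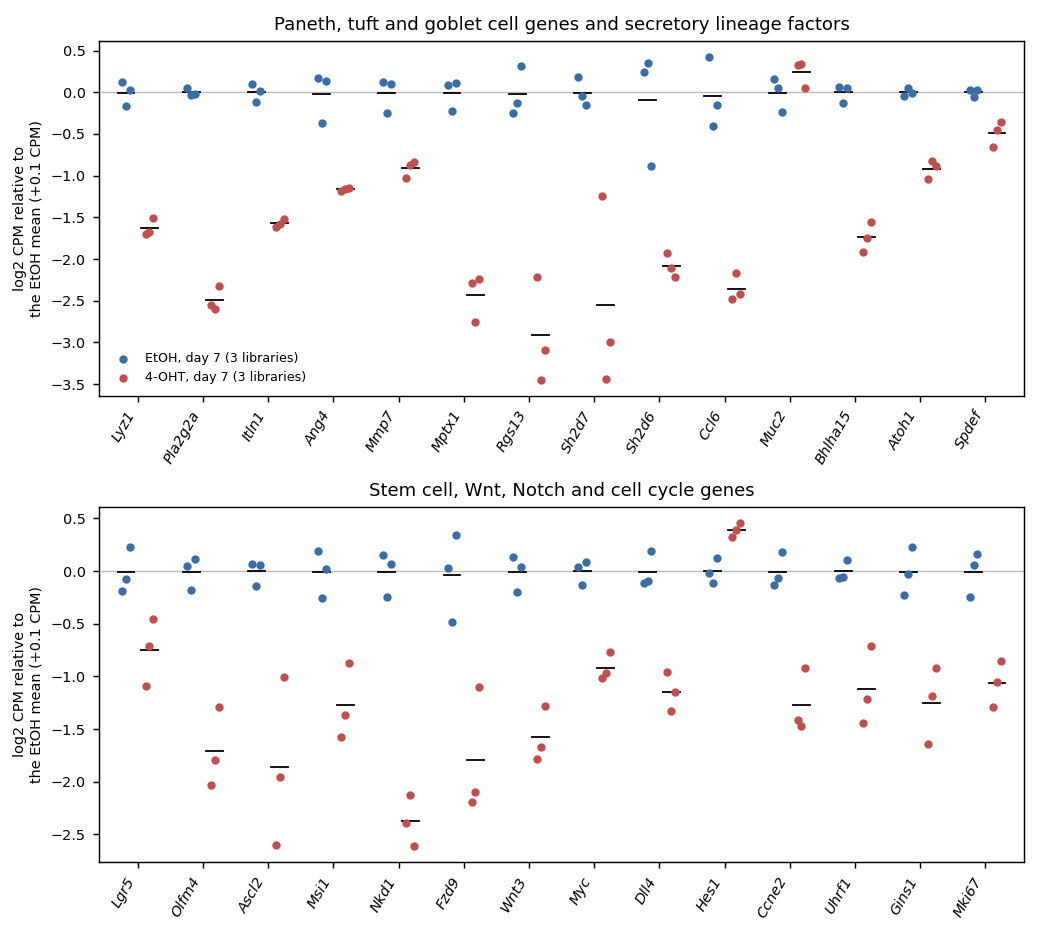
Levels of secretory lineage genes (top) and of stem cell, Wnt, Notch and cell cycle genes (bottom) in each day-7 library, as log2 CPM relative to the mean of the 3 EtOH libraries after adding 0.1 CPM, which understates low genes. Each point is 1 library (replicates 1 to 3 from left to right within a group), and bars are group means. The 4-OHT points lie below the EtOH points for every gene shown but Muc2 and Hes1.

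Of 16 tested markers of crypt base stem cells, 8 fell, 1 rose and 7 were not called, with a median of -0.61. Olfm4, an abundant secreted stem cell marker, had 31237, 27092 and 32385 counts in EtOH and 6893, 8496 and 11732 in 4-OHT libraries (log2 fold change -1.67 ± 0.17 SE, adjusted p = 1.79e-07). Ascl2, the Wnt-dependent factor that maintains stem cell identity, had 468, 413 and 461 and 67, 111 and 210 counts (-1.72 ± 0.29). In both genes 4-OHT replicate 3 was the highest of its group, yet under every EtOH library. Lgr5, the receptor for R-spondin that defines these cells, fell less (2509, 2754 and 3324 against 1255, 1710 and 1982 counts, log2 fold change -0.73 ± 0.13 SE, adjusted p = 0.000158), and without 4-OHT replicate 1 it passed below the fold threshold (-0.58). Tnfrsf19 (-1.96 ± 0.36) and the RNA-binding protein Msi1 (-1.25 ± 0.14) fell too. Gkn3 was the 1 gene of the list that rose, named after its value was seen: 124, 118 and 196 counts in EtOH and 150, 263 and 313 in 4-OHT libraries, overlapping groups (0.80 ± 0.25), and it was not called without EtOH replicate 1, EtOH replicate 2 or 4-OHT replicate 3.

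In the Wnt pathway, of 18 genes tested 9 fell and 1 rose (median -0.63). Among the ligands, Wnt3, which Paneth cells supply to stem cells, had 293, 237 and 273 counts in EtOH and 71, 81 and 103 in 4-OHT libraries (log2 fold change -1.58 ± 0.13 SE, adjusted p = 1.11e-10). Wnt9b fell at low counts (16, 15 and 25 against 10, 2 and 5, -1.62 ± 0.46, and -2.33 without 4-OHT replicate 1), and Wnt6, the 1 gene that rose, named for that reason, went from 12, 16 and 1 to 28, 23 and 29 counts (1.53 ± 0.45). Among receptors Fzd9 fell (-1.76 ± 0.23). Among targets, the feedback inhibitor Nkd1 had 47, 36 and 44 and 6, 8 and 5 counts (log2 fold change -2.65 ± 0.33 SE, adjusted p = 1.87e-07), Myc, the growth regulator, fell by 0.91 ± 0.07, and Ephb2, which positions cells along the crypt, had a difference under the threshold (-0.26 ± 0.05). Of the targets shown, Nkd1 thus had the largest fall and Ephb2 the smallest difference.

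The Notch list of 14 tested genes had 4 called lower and none higher (median -0.35), where 9.25% of all genes were lower. The ligand Dll4 had 179, 184 and 219 counts in EtOH and 92, 74 and 82 in 4-OHT libraries (log2 fold change -1.16 ± 0.16 SE, adjusted p = 1.18e-06). Lfng, a glycosyltransferase that modifies Notch, fell by 0.99 ± 0.11, and its relative Mfng had 30 counts over the EtOH and 8 over the 4-OHT libraries (ratio 3.57, 95% exact interval 1.60 to 9.01, counting error only), a call lost without EtOH replicate 3 (adjusted p = 0.0659, edgeR) or 4-OHT replicate 1 (0.0623). Hes5, a target of Notch, fell at low counts (20, 17 and 13 against 7, 3 and 6, -1.55 ± 0.43). Hes1, the target that represses Atoh1, had 1788, 1712 and 1964 counts in EtOH and 2131, 2333 and 2367 in 4-OHT libraries. Every 4-OHT value lay above every EtOH value, and the difference passed the adjusted p but not the fold threshold (log2 fold change 0.39 ± 0.06 SE, adjusted p = 6.78e-06). Notch1 (-0.55) and Dll1 (-0.48) were not called, but Notch1 passed without 4-OHT replicate 3 (-0.61) and Dll1 without 4-OHT replicate 1 (-0.65).

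In the list of the EGF family and its MAPK feedback genes, 1 of 21 was called, the receptor Erbb3 (0.71 ± 0.11), and the median was 0.06. The BMP and TGF-beta list of 12 had Bmp7 (-0.76 ± 0.13) and Atoh8 (-0.85 ± 0.18) lower and Bmp2 higher (0.93 ± 0.20), with Id1 not called (-0.23). Without 4-OHT replicate 1 the BMP and TGF-beta list had 2 genes higher. Of 13 genes seen in regenerating or fetal-like epithelium 3 fell and 2 rose. Of all genes 9.25% fell and 9.00% rose. Clu, which marks revival stem cells, had 523, 577 and 749 counts in EtOH and 94, 160 and 147 in 4-OHT libraries (log2 fold change -2.13 ± 0.28 SE, adjusted p = 5.62e-06), the cornified envelope gene Sprr1a fell by 1.92 ± 0.28, and Il1rn, the interleukin 1 receptor antagonist, rose by 1.26 ± 0.22. The list was split in direction, with a median of 0.41, and without EtOH replicate 3 the count of higher genes was 4.

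Cell cycle genes fell almost without exception. Of 27 genes of DNA replication and the G1/S transition 25 fell and none rose (median -0.95), and of 24 genes of mitosis and G2/M 22 fell and none rose (median -0.80), where 9.25% of all genes fell. Ccne2, the cyclin that drives entry into S phase, had 252, 268 and 311 counts in EtOH and 96, 96 and 138 in 4-OHT libraries (log2 fold change -1.26 ± 0.19 SE, adjusted p = 3.69e-06). Mki67, the proliferation antigen, had 4897, 6168 and 6489 and 2233, 2754 and 3073 counts (log2 fold change -1.05 ± 0.14 SE, adjusted p = 2.69e-06). Gins1, of the replicative helicase (-1.25 ± 0.20), Uhrf1, which maintains DNA methylation (-1.09 ± 0.14), the primase subunit Prim1 (-1.09 ± 0.11), the survivin gene Birc5 (-0.99 ± 0.12), the spindle kinesin Kif11 (-0.96 ± 0.14) and the checkpoint kinase Bub1 (-0.90 ± 0.16) were called lower too. Pcna, the replication clamp, was not (2494, 2427 and 2562 against 1660, 1796 and 2155 counts, log2 fold change -0.34 ± 0.08 SE, adjusted p = 0.000599). In all 27 replication genes and in 23 of 24 mitosis genes all 4-OHT libraries lay below all EtOH libraries, against 24.4% of all genes, and 4-OHT replicate 3, the library nearest to EtOH, was the highest of its group for Ccne2, Mki67, Gins1, Uhrf1, Prim1, Birc5, Kif11 and Bub1.

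Promoters of these genes often hold sites for E2F factors, which switch on S phase genes. In RefSeq promoters (GRCm38.p6, 250 bases before to 50 after the start site), 2 E2F-type words were searched on both strands: TTTCC followed by CGC, and TTTGG followed by CGC. They were found in 7 of 25 promoters of the replication list (28.0%), in 0 of 21 of the mitosis list, in 6.1% of the promoters of genes lower at day 7, in 1.1% of those of genes higher, and in 2.8% of those of all genes tested. The 200 bases before the start site are shown for Cdc6, a replication licensing factor (-1.06 ± 0.17; chr11:98907951-98908150 on the plus strand), and Mcm6, a helicase subunit (-0.94 ± 0.10; chr1:128359706-128359905 on the minus strand), picked for these words after their values were seen. The words are in capitals. The word begins 138 bases before the start site in Cdc6, and at 110 and 47 bases before it in Mcm6. A match is a description of the letters and not a bound site.
Cdc6: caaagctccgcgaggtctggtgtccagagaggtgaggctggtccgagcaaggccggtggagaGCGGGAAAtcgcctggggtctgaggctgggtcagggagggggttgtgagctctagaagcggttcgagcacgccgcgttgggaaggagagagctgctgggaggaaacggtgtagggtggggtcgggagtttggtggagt
Mcm6: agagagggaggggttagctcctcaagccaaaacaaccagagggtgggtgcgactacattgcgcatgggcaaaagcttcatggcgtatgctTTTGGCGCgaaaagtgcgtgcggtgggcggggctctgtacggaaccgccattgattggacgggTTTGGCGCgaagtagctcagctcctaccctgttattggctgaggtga

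Among stress and metabolic programmes, targets of ATF4, which makes cells synthesise amino acids, had 7 of 15 lower and none higher (median -0.52). The serine synthesis enzymes led: Psat1 had 4749, 4554 and 4810 counts in EtOH and 1175, 1246 and 1976 in 4-OHT libraries (log2 fold change -1.61 ± 0.22 SE, adjusted p = 1.1e-05), Phgdh fell by 1.60 ± 0.29 and Shmt2, which passes the carbon on to folate, by 1.40 ± 0.13. The amino acid transporter Slc7a5 fell as well (-1.22 ± 0.18), whereas Atf4 itself was not called (-0.21). Targets of NRF2, the antioxidant factor, had 6 of 17 lower, where 9.25% of all genes were. Among them were the cystine transporter Slc7a11 (-1.65 ± 0.28) and heme oxygenase Hmox1 (927, 811 and 808 against 264, 264 and 324 counts, log2 fold change -1.51 ± 0.12 SE, adjusted p = 9.1e-11). Nqo1 was not called (-0.43).

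Of 16 immediate early genes 3 fell and 1 rose, where 18.3% of all genes were called. Egr1, a growth factor-induced factor, had 1128, 1386 and 1377 counts in EtOH and 285, 372 and 400 in 4-OHT libraries (log2 fold change -1.81 ± 0.13 SE, adjusted p = 2.01e-10), while Fos was not called (362, 377 and 425 against 371, 405 and 441, 0.14). Jun (-0.81 ± 0.14) and Atf3 (-0.70 ± 0.17) fell (Atf3 not without 4-OHT replicate 1, -0.54) and the RNA decay factor Zfp36 rose (0.65 ± 0.08), with 2 genes of the list higher without 4-OHT replicate 1. The p53 targets showed 2 of 18 higher, a share near the 9.00% of all genes, the death receptors Fas (0.84 ± 0.14) and Tnfrsf10b (0.76 ± 0.09), and 1 lower, the nuclease Aen (-0.90 ± 0.15). Cdkn1a, the p53-induced cell cycle inhibitor, was not called (20297, 16892 and 14657 against 16246, 18220 and 18850 counts, 0.11), nor was Mdm2 (-0.19). None of 18 genes of protein folding in the endoplasmic reticulum and none of 13 mitochondrially encoded genes was called by edgeR, DESeq2 or limma-voom. In edgeR 13 and 4 of them had an unadjusted p under 0.05, and 10 and 1 an adjusted p under 0.05. Those 10 and 1 missed only the fold threshold. Over all genes, 6982 of 15447 had such an adjusted p. The medians of those lists were -0.16 and 0.20.

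Interferon-stimulated genes, the antiviral programme that cells switch on after an interferon signal, were higher. Of 24 tested 17 rose, against 9.00% of all genes, none fell, 7 were not called, and the median was 1.57, while 3 more had too few counts. Oasl2 had 37, 45 and 52 counts in EtOH and 587, 1019 and 861 in 4-OHT libraries (log2 fold change 4.27 ± 0.28 SE, adjusted p = 4.35e-10). Oas3 ranged from 2 to 10 counts in EtOH and from 84 to 167 after 4-OHT, and Ifit3, an RNA-binding effector, from 2, 6 and 3 to 15, 50 and 46 counts (log2 fold change 3.36 ± 0.52 SE, adjusted p = 4.35e-06). Oas2 had 5 counts over the EtOH and 47 over the 4-OHT libraries (ratio 9.88, 95% exact interval 3.95 to 31.8, counting error only). Without EtOH replicate 2 the log2 fold changes of Oas3 and Oas2 were 5.06 and 3.86, against 4.41 and 3.21. In these genes 4-OHT replicate 1 was the lowest of its group, and no 4-OHT library reached down to an EtOH library. Oas2 and Ifit3 passed the count filter only with the help of 4-OHT libraries, so the share of rises in this list depends in part on the filter. Under a filter of 10 or more counts per library, 11 genes of the list were called higher. Without EtOH replicate 1, EtOH replicate 3 or 4-OHT replicate 1, 1 gene of the list was called lower. Several of these genes belong to families with near-identical members (Oas, Ifit), among which reads may be shared.

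These promoters are known for the interferon-stimulated response element (ISRE), searched here on both strands as GAAA, any 2 bases and GAAA again. It was found in 13 of 21 RefSeq promoters of the tested genes of the list (61.9%), in 2.9% of promoters of all genes tested, in 6.1% of those of genes higher at day 7 and in 2.4% of those of genes lower. The 200 bases before the start site are shown for 4 genes of the list chosen after their values were seen, because they hold the element and rose: Oas3 (chr5:120777660-120777859 on the minus strand), Ifit3 (chr19:34583329-34583528 on the plus strand), Rsad2, an antiviral enzyme (chr12:26456453-26456652 on the minus strand), and Isg15, a ubiquitin-like modifier (chr4:156200819-156201018 on the minus strand). Capitals mark the element, which begins 75 bases before the start site in Oas3, 156 and 122 in Ifit3, 120 in Rsad2, and 78, 72 and 66 in Isg15, where the 3 matches overlap. Rsad2 had 5, 5 and 12 counts in EtOH and 38, 60 and 73 in 4-OHT libraries (3.01 ± 0.42), and Isg15 11, 6 and 6 and 22, 32 and 26 (1.85 ± 0.43). Cxcl10 (5, 19 and 6 against 6, 4 and 1 counts, -1.34 ± 0.60) and Bst2 (-0.24 ± 0.15) hold the element, were not called and had negative fold changes. Again a match describes the letters only.
Oas3: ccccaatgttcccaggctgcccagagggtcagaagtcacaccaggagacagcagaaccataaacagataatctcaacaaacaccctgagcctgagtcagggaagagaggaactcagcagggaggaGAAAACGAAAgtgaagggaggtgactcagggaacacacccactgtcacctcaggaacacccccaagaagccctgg
Ifit3: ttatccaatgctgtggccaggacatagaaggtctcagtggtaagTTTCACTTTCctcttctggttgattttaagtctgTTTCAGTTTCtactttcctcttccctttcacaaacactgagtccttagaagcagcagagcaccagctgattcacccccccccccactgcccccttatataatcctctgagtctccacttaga
Rsad2: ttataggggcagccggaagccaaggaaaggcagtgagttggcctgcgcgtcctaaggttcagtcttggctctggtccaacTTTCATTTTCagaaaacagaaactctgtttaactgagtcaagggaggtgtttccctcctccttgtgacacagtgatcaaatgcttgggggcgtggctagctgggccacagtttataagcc
Isg15: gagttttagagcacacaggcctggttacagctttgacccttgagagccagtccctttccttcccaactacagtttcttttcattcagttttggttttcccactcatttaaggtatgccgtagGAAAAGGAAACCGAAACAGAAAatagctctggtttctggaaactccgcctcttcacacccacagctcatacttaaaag

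Genes of antigen presentation and of epithelial defence rose beside them. Of 17 MHC genes listed 9 were tested, and of these 6 rose and none fell (median 0.92). The class II genes H2-Aa and H2-Ab1, as well as Ciita and Psmb8, were among those with too few counts, so the rise does not speak for them. Psmb9, an immunoproteasome subunit, had 22, 16 and 19 counts in EtOH and 59, 69 and 90 in 4-OHT libraries (log2 fold change 2.00 ± 0.27 SE, adjusted p = 5.82e-07). The peptide transporter genes Tap1 (115, 117 and 87 against 256, 277 and 251, 1.37 ± 0.17) and Tap2 (1.31 ± 0.18) and their partner Tapbp (1.03 ± 0.12) rose too, each without overlap. Tap1 and Psmb9 overlap on opposite strands, so some reads may belong to either. In the defence list 7 of 15 rose and 1 fell, the latter not without EtOH replicate 1. Reg3g, a lectin that kills Gram-positive bacteria, had 759, 843 and 930 counts in EtOH and 3707, 2953 and 2000 in 4-OHT libraries (log2 fold change 1.85 ± 0.25 SE, adjusted p = 1.08e-05), Reg3a rose by 1.11 ± 0.17, and Reg3b did not pass (123, 146 and 169 against 225, 151 and 94, 0.18). The chemokine Ccl20 (1.00 ± 0.32) and the NF-kB inhibitor Tnfaip3 (0.97 ± 0.09) were called higher, Ccl20 not without EtOH replicate 3 (adjusted p = 0.0802 by the same edgeR test) or 4-OHT replicate 1 (0.0634).

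Enterocyte genes rose in part. Of 19 tested enzymes in the brush border list 10 rose and none fell (median 0.65), while Enpp7 (-2.94) and the alkaline phosphatase Akp3 (-1.49), which are outside the list, were called lower, Akp3 not without EtOH replicate 1 or 4-OHT replicate 3 (-1.34 and -1.22). Mep1a, a metalloprotease, had 529, 602 and 516 counts in EtOH and 2718, 2963 and 2375 in 4-OHT libraries (log2 fold change 2.36 ± 0.09 SE, adjusted p = 5e-17), a 5.14-fold rise with close replicates. The peptidases Ace (2.10 ± 0.12), Anpep (11481, 13188 and 12625 against 35435, 40879 and 33344 counts, 1.63 ± 0.08) and Dpp4 (1.26 ± 0.09) rose as well. Sis, the sucrase, and Alpi, the intestinal alkaline phosphatase, did not pass: Sis had 65503, 83418 and 57357 and 76233, 76409 and 53885 counts (0.08), and Alpi had a log2 fold change of 0.42 with an adjusted p of 0.158. Krt20, a keratin of mature villus cells, rose by 0.94 ± 0.08.

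Of 8 genes of bile acid handling 6 rose and none fell. Slc10a2, the ileal bile acid importer, had 263, 294 and 287 counts in EtOH and 690, 1072 and 1006 in 4-OHT libraries (log2 fold change 1.78 ± 0.14 SE, adjusted p = 1.97e-10). The exporters Slc51a (0.99 ± 0.09) and Slc51b (1.29 ± 0.11) and Nr1h4 (FXR), the receptor that senses bile acids (0.93 ± 0.08), rose, and Fgf15, its secreted target, was not called (-0.21). In lipid uptake 5 of 18 rose, 1 fell and 12 were not called, where 9.00% of all genes rose and 9.25% fell. Cd36, a fatty acid receptor, had 150, 110 and 93 and 692, 627 and 472 counts (log2 fold change 2.42 ± 0.15 SE, adjusted p = 7e-13), and the cholesterol exporter Abca1 had 62 counts over the EtOH and 6 over the 4-OHT libraries (ratio 9.83, 95% exact interval 4.27 to 27.8, counting error only). Without 4-OHT replicate 2 only 3 lipid genes were called higher.

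For sugars, 5 of 12 genes fell and 2 rose, where 9.25% of all genes fell and 9.00% rose. The fructose transporter Slc2a5 had 10043, 7483 and 5913 counts in EtOH and 2730, 2124 and 1946 in 4-OHT libraries (log2 fold change -1.71 ± 0.27 SE, adjusted p = 6.67e-05). Fbp1 of gluconeogenesis fell by 1.37 ± 0.22, the glucose importer Slc5a1 was not called (0.07), and the inositol transporter Slc5a11 rose by 1.49 ± 0.12. Without EtOH replicate 1, EtOH replicate 3 or 4-OHT replicate 2 only 1 sugar gene was called higher. The wide spread of Slc2a5 within EtOH did not reach the 4-OHT values.

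Other enterocyte functions were varied too. Of 25 drug-metabolising enzymes 12 rose, led by Fmo2 (2.23 ± 0.35), Cyp4b1 (1392, 1356 and 1220 against 5156, 4775 and 3952 counts, 1.88 ± 0.14) and Fmo1 (1.65 ± 0.20), and 3 fell, led by Cyp2c29 (-1.64 ± 0.15). In retinoid metabolism 2 of 14 rose (Rdh7 1.34, Rbp2 0.74) and 2 fell (Adh4 -2.29, Aldh1a1 -0.77), shares not far from the 9.00% and 9.25% of all genes. Of 15 genes of fatty acid oxidation 3 rose, among them Acadl (0.82) and Cpt1a (0.65), and Cpt1a fell under the fold threshold without EtOH replicate 1 (0.57). Of 26 genes of sterol and fatty acid synthesis only Scd1 (0.82 ± 0.09) and Sc5d (0.69 ± 0.07) rose, a share near that of all genes, and without 4-OHT replicate 1 the count was 4. The clock gene Dbp (0.88 ± 0.12) was the 1 of 15 called, and Car9 rose (0.76 ± 0.08) and Ankrd37 fell (-0.62 ± 0.11) among 18 glycolysis and hypoxia genes, Ankrd37 not without 4-OHT replicate 1 (-0.57). For the clock list and the glycolysis and hypoxia list, the share called was below the 18.3% of all genes.

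Of 20 enterocyte transcription factors 3 were called, all higher, where 9.00% of all genes were: Maf, which drives the maturation of villus cells (176, 230 and 180 against 726, 787 and 559 counts, log2 fold change 1.89 ± 0.18 SE, adjusted p = 2.8e-08), the mitochondrial coactivator Ppargc1a (1.24 ± 0.15) and Prdm1 (0.95 ± 0.19). Hnf4a and Cdx2, general identity factors, had log2 fold changes of -0.07 and 0.24 and were not called. The rise of these enterocyte genes was measured beside epithelial marker sums that were themselves higher in every 4-OHT library, and their part in it was not tested.

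**Figure D2:**
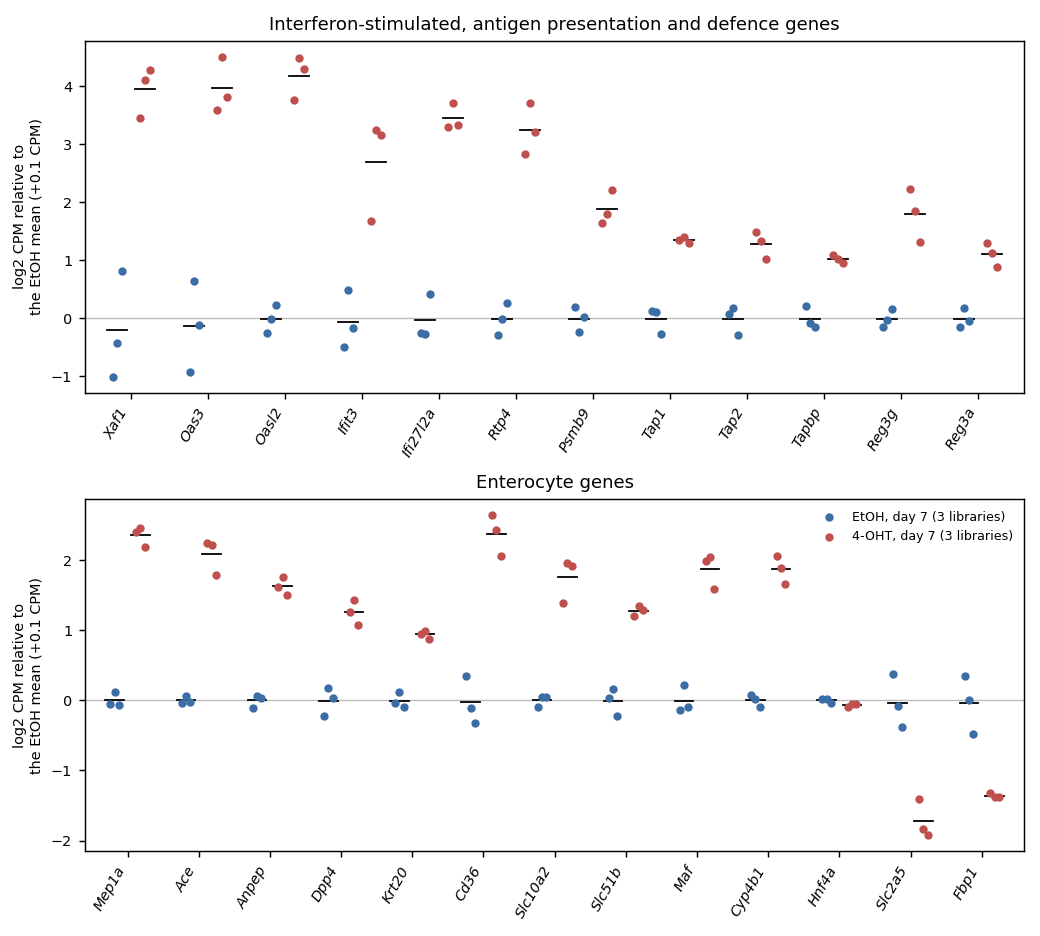
Levels of interferon-stimulated, antigen presentation and defence genes (top) and of enterocyte genes (bottom) in each day-7 library, as log2 CPM relative to the mean of the 3 EtOH libraries after adding 0.1 CPM, which understates low genes. Each point is 1 library and bars are group means. The 4-OHT points lie above the EtOH points except for Hnf4a, Slc2a5 and Fbp1, where they lie below.

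**Figure D3:**
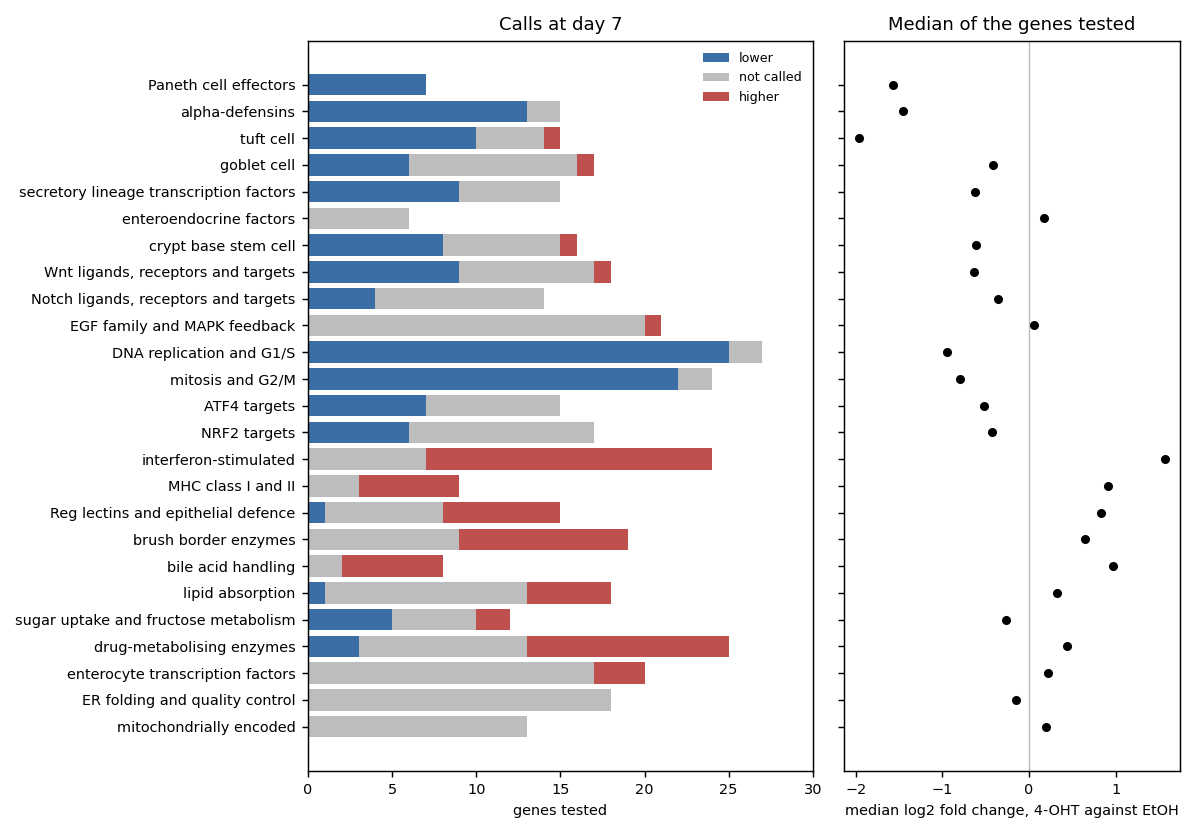
Number of tested genes called lower, not called and called higher at day 7 in 25 of the lists (left) and the median log2 fold change of the genes tested, 4-OHT against EtOH (right). The longest blue bars are those of DNA replication (25 of 27) and mitosis (22 of 24), the longest red bar is that of interferon-stimulated genes (17 of 24), and the lowest median is that of the tuft cell list (-1.96).

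The day-7 response was compared with that of day 5 and day 10 in the same fit, each day against its own EtOH libraries. The response differed from that of day 5 for 1361 genes (8.81%), 587 with a more positive (3.80%) and 774 with a more negative (5.01%) fold change at day 7. At day 5, 11 of the higher and 41 of the lower genes were called in the opposite direction. At day 5 itself 8.58% of genes were higher and 4.62% lower. Called in the same direction at both days were 458 of the higher genes (32.9%, and 34.5% of those higher at day 5) and 423 of the lower genes (29.6%, and 59.2% of those lower at day 5). Against 5.01% of all genes, 2 of 7 Paneth effectors, 2 of 15 alpha-defensins, 2 of 16 stem cell genes and 3 of 18 Wnt genes had a more negative response at day 7 than at day 5. Lyz1 moved from -1.01 at day 5 to -1.63 at day 7 (difference -0.62 ± 0.15, adjusted p = 0.00666), Olfm4 from -0.94 to -1.67 (difference -0.73) and Nkd1 from -0.93 to -2.65 (difference -1.72). At day 3, where 6.42% of genes were higher and 5.95% lower, none of these 3 genes was lower, with log2 fold changes of 0.28, 0.40 and 0.76.

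The fold changes of 4 of 9 MHC genes and of 6 of 19 brush border genes were more positive at day 7 than at day 5, among them those of Psmb9 (difference 1.31), Tap1 (1.14), Anpep (0.84) and Mep1a (0.79). Of the 24 interferon-stimulated genes 1, Oasl2, had a larger rise (1.27 ± 0.40), as had Xaf1 (2.43) and Ifi27l2a (2.03), which are outside it. In both cell cycle lists together 1 gene differed between days 5 and 7, and at day 5 itself 21 of the 27 replication genes and 6 of the 24 mitosis genes were lower. Differences were ranked among called genes with a mean of at least 50 counts in the highest group compared. The largest differences from day 5 were those of Alb, the albumin gene (-2.52 at day 5 and 1.60 at day 7), Adgrd1 (0.05 and 3.86) and Wipf3 (-1.64 and 0.85) upwards, and of Msln, a surface protein of fetal-like cells (3.66 and -1.54), Psca (5.94 and 1.04) and Prl2c3 (0.92 and -3.40) downwards. With 1 library left out, the difference was 4.89 for Alb (without 4-OHT replicate 2 of day 5), 4.53 for Adgrd1 (without EtOH replicate 1 of day 7) and -4.93 for Prl2c3 (without 4-OHT replicate 2 of day 7). Clu went from 0.96 to -2.13. Psca at day 7 lost its call without any 1 of 5 libraries (all but 4-OHT replicate 2, log2 fold changes 0.92 to 1.13). Of the 13 mitochondrially encoded genes 12 were called higher at day 5 and none at day 7.

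From day 7 to day 10 the response differed for 990 genes (6.41%), 461 more positive (2.98%) and 529 more negative (3.42%) at day 10, and the first of these counts was 699 without 4-OHT replicate 3 of day 7. Of the day-7 calls, 694 higher genes and 527 lower genes were called in the same direction at day 10 (49.9% and 36.9% of them, and 50.7% and 49.3% of the genes called there, where 8.86% of all genes were higher and 6.92% lower). Differences between days 5 and 7 and between days 7 and 10 share the day-7 libraries and are not independent. Interferon-stimulated genes came down in part, with 4 of 24 significantly lower relative to day 7: Oas3 went from 4.41 to 1.39 (difference -3.01 ± 0.55, adjusted p = 0.000349) and Oasl2 from 4.27 to 1.84, while Ifi27l2a and Xaf1 went to 0.94 and 1.93. The fall of 5 of 27 replication genes was shallower at day 10, among them Ccne2 (from -1.26 to -0.47) and Gins1 (from -1.25 to -0.19).

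By day 10, 8 of 17 NRF2 targets had a more positive fold change than at day 7, with Nqo1 at 1.00 (called higher) and Gstm1 going from -0.77 to 0.58. Of 7 Paneth effectors 3 were significantly lower relative to day 7: Pla2g2a went from -2.51 to -3.42, Ang4 from -1.17 to -2.09 and Itln1 from -1.57 to -2.37. With the same floor of 50 counts, the largest differences were those of Alox12b (1.54 at day 7 and -3.46 at day 10), Acacb (4.35 and -0.00061) and Ifi27l2a downwards, and of Fcrlb (-0.91 and 1.79), Cfhr2 (-0.64 and 1.99) and the alkaline phosphatase Akp3 (-1.49 and 1.09) upwards. Acacb lost this call without EtOH replicate 3 of day 10 (adjusted p = 0.0611), Akp3 without that library (0.0516) or 4-OHT replicate 1 of day 10 (0.063), and Fcrlb without EtOH replicate 1, EtOH replicate 2 or 4-OHT replicate 2 of day 7 (0.0511 to 0.0562), all by the edgeR test. The differences were -7.69 for Alox12b without 4-OHT replicate 2 and -4.41 without EtOH replicate 3 of day 10, 1.89 for Akp3 without 4-OHT replicate 1 of day 10, and -5.21 for Acacb and 4.02 for Fcrlb without EtOH replicate 3 and 4-OHT replicate 1 of day 7, respectively. At day 7 itself Fcrlb was called lower without 4-OHT replicate 1 (-2.24), Akp3 was not called without EtOH replicate 1 (-1.34) or 4-OHT replicate 3 (-1.22), and Cfhr2 was not called without any 1 of 4 libraries (-0.61 to -0.49).

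**Figure D4:**
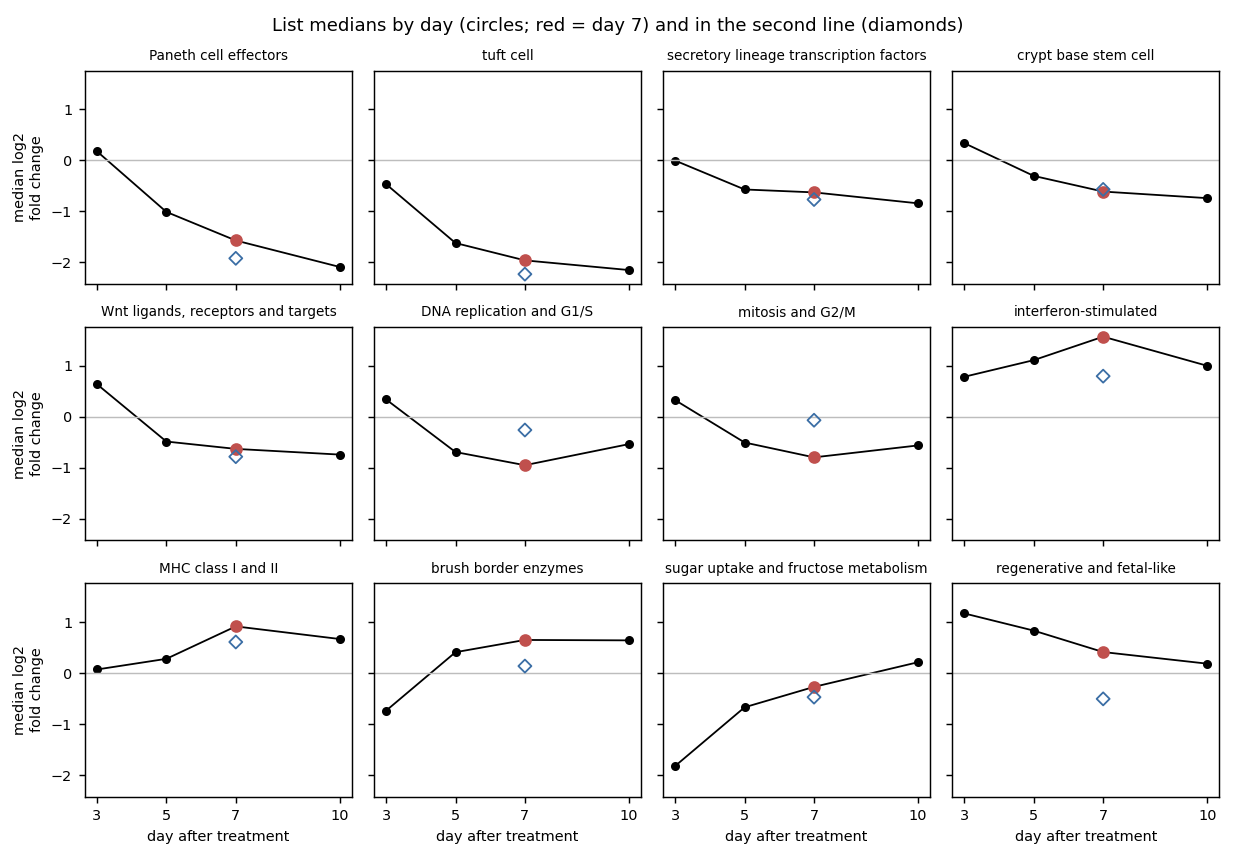
Median log2 fold change of 12 lists (4-OHT against EtOH) at days 3, 5, 7 and 10 of the time course, with day 7 in red, and in the second line at day 7 (open blue diamonds, against VillinCreERT2 organoids). Medians of the Paneth list run from 0.178 at day 3 to -2.09 at day 10, those of both cell cycle lists are lowest at day 7, and that of the interferon list is highest at day 7.

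A second line of the same genotype (VillinCreERT2, Cdk8 fl/fl, Cdk19-/-) was sequenced 7 days after 4-OHT and set against VillinCreERT2 organoids that also received 4-OHT, with 3 libraries each and none shared with the comparison above. In that comparison 4-OHT and active Cre are common to both groups, but the lines differ, and Cdk19 status differs too. There 2938 of 15125 genes were called, 1736 higher (11.5%) and 1202 lower (7.95%). Of the 1391 genes higher at day 7 of the time course, 1269 were tested in the second line, 535 of them (42.2%) were higher there too and 44 were lower. Of the 1429 lower genes 1362 were tested, 368 (27.0%) were lower and 32 higher. Those shared genes made up 33.8% of the 1581 higher and 34.1% of the 1078 lower second-line genes that were tested in both.

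The Paneth, tuft and secretory factor lists had most of their members called lower in both lines, with 6 of 7 Paneth effectors, 10 of 14 tuft genes and 11 of 15 secretory factors lower in the second line and none of these higher. Lyz1 had -1.30 ± 0.06 there, Pla2g2a -2.47, Rgs13 -2.73, Atoh1 -0.80 and Wnt3 -1.39. Interferon-stimulated genes were higher in both, 14 of 19 tested in the second line, with Oasl2 at 2.97 and Oas3 at 1.35. Chrna4 (mean 0.115 CPM in VillinCreERT2 and 31.2 CPM in the second line) and Acacb (3.67) rose there as well, and Hes1, under the fold threshold in the time course, was called higher (0.60).

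Of both cell cycle lists together 1 gene was called in the second line, a replication gene that was lower (edgeR, medians -0.26 and -0.07), with Mki67 at -0.24 ± 0.10. Of 8 bile acid genes 3 were lower and none higher there, with Slc10a2 at -1.36 and Fabp6, the ileal bile acid binding protein, at -3.46 (here 1.48 from 9, 10 and 18 and 11, 41 and 47 counts, and not called without 4-OHT replicate 3, adjusted p = 0.0658 by the edgeR test). Of 19 brush border genes 3 were higher and 2 lower there, shares not far from the 11.5% and 7.95% of all genes in that line. The difference between both comparisons was not tested, since they differ in line, control and library set at once.

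**Figure D5:**
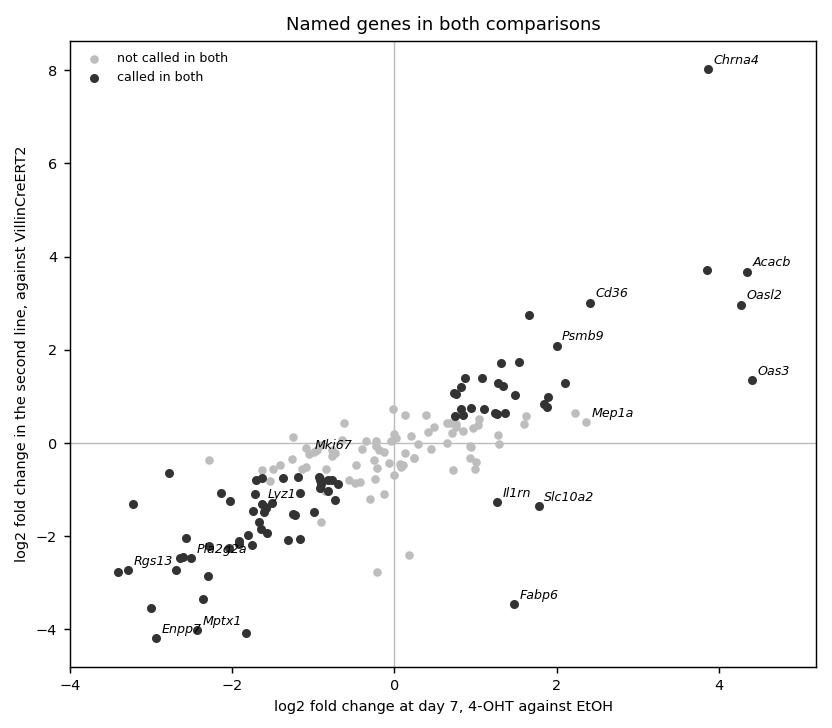
Log2 fold changes of the 166 named genes tested in both comparisons: at day 7 of the time course (x axis, 4-OHT against EtOH) and in the second line (y axis, against VillinCreERT2). Dark points are the 86 genes called in both, 83 of them in the same direction. Fabp6, Slc10a2 and Il1rn are the 3 called in opposite directions.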

How the data were processed

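Polyadenylated RNA of mouse organoids was sequenced in 100 bp paired-end reads. The deposited values were raw counts per gene made by the authors. The submitters' processing notes name STAR 2.5.2, featureCounts from Subread 1.6.3 and the mm10 genome. Strand settings were not given in the sources used here. No normalisation was applied before deposit.

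Samples were grouped by their labels. The 24 time-course libraries were fitted together in edgeR 4.0.16 (R 4.3.3), with 8 groups, TMM normalisation, filterByExpr and the quasi-likelihood test. The second line was fitted separately with 15 libraries. Besides the 2 groups compared, these held 4-OHT-treated organoids labelled Cdk8KO, Cdk19KO and WT, which shared in the filter, scaling and spread. Differences between days were interaction contrasts. Calls required a Benjamini-Hochberg adjusted p below 0.05 together with a fold above 1.5. Alternatives were other filters and scalings, DESeq2 1.42.0, limma-voom (limma 3.58.1), other thresholds, a replicate block and leaving out each library. Scripts were tested on simulated data.

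The 3 libraries of a group each had about the depth given above, and that number limits the precision. No 2 libraries held identical values. Same-numbered EtOH and 4-OHT libraries had correlations of their deviations of 0.102, 0.00179 and 0.162, so the numbers were not taken as pairs. Ratios of summed low counts carry exact 95% intervals for counting error only.

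Members and gene lists were chosen with earlier results of these data known. Named genes were the kinase module, the 10 largest rises and falls (mean of at least 50 counts in the higher group), up to 4 called genes of each list with its best known members, genes the study names, and the 3 largest differences in each direction between days (mean of at least 50 counts in the highest group compared). Positions came from GENCODE vM21, which held 53861 of 54752 identifiers and 174 of 182 named genes. RefSeq promoters (GRCm38.p6) matched 10352 of 15442 tested symbols. Apart from the table that holds the second line, tables of the other experiments of the series were not used here. A few genes are not reported here.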

Additional observations from a re-analysis of the deposited data

Results flagged for a closer look

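Each value here is a difference between 2 responses on the log2 scale, every one past an adjusted p of 0.05 and a fold of 1.5 in edgeR's interaction test. They are listed because the response, 4-OHT against EtOH, differed between days. It did so for 1361 genes between days 5 and 7 and for 990 genes between days 7 and 10, and both sets of differences share the day-7 libraries. Values of genes named above that also lost or gained a call without 1 library are given there.

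For the response at day 7 minus day 5, Paneth, tuft, goblet and crypt genes had differences of Lyz1 -0.62, Pla2g2a -0.60, Defa20 -0.90, Defa34 -0.80, Sh2d6 -1.92, Ccl9 -0.75, Olfm4 -0.73, Msi1 -0.70, Myb -0.61 and Nkd1 -1.72. Differences of interferon, antigen presentation and defence genes were Xaf1 2.43, Ifi27l2a 2.03, Oasl2 1.27, Psmb9 1.31, Tap1 1.14, Tap2 0.83, Reg3a 1.56 and Reg3g 1.26. Differences of enterocyte genes of the brush border and of bile acid, lipid, sugar and drug handling were Anpep 0.84, Dpp4 0.59, Mep1a 0.79, Slc51a 0.99, Slc51b 0.96, Fabp1 1.23, Fbp1 1.58, Slc5a11 0.89, Rdh7 1.60 and Fmo2 1.78. Differences of regulators and signalling genes were Maf 0.93, Ppargc1a 0.90, Areg 0.76, Bmp2 0.96, Egr1 0.59, Dbp 0.75, Aen -0.80 and Hmox1 -0.62. Differences of regenerative, stromal, immune and other genes were Adgrd1 3.81, Alb 4.12, Alox12b 2.04, Cfhr2 -1.06, Clu -3.10, Itgam 1.20, Msln -5.19, Mup-ps23 -1.10, Nox1 -2.22, Pdgfrb 0.89, Prl2c3 -4.32, Psca -4.89, Ptgds -2.33 and Wipf3 2.49.

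For the response at day 10 minus day 7, Paneth, stem cell, Wnt and lineage genes had differences of Ang4 -0.92, Itln1 -0.80, Pla2g2a -0.91, Lgr5 -0.66, Olfm4 0.70, Nkd1 1.85, Ephb2 -0.68, Neurog3 -1.02, Dll1 0.82 and Prdm1 -1.00. Differences of cell cycle genes were Birc5 0.67, Ccne2 0.79, Gins1 1.06 and Prim1 0.69. Differences of interferon and defence genes were Ifi27l2a -3.02, Oas3 -3.01, Oasl2 -2.42, Xaf1 -2.93, Tap1 -0.77, Reg3g -1.03 and Il1rn -1.17. Differences of antioxidant and drug or retinoid enzymes were Nqo1 1.43, Gstm1 1.34, Gpx2 0.83, Adh4 1.36, Aldh1a1 0.88 and Cyp2c29 1.14. Differences of enterocyte genes were Anpep -0.65, Akp3 2.58, Cd36 0.65, Enpp7 1.66, Fgf15 -1.95, Slc10a2 -1.29 and Slc2a5 1.23. Differences of signalling, stromal and other genes were Acacb -4.35, Aen 0.64, Alox12b -4.995, Bmp2 -1.04, Cfhr2 2.63, Chrna4 -2.10, Clu 1.34, Erbb3 -0.67, Fcrlb 2.70, Krtap3-1 1.79, Mup-ps23 1.08, Nrep 1.29, Pdgfrb -0.85, Ptgds 2.30 and Wipf3 -1.15.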

How the results depend on the processing

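At day 7 the count of 2820 genes lay between 2236 and 2896 under no filter or 10 or more counts per library, other scalings, DESeq2, limma-voom and a fit of 6 libraries, with 2173 to 2802 calls shared with the reported ones, and between 2494 and 3085 with 1 library left out. With the adjusted p alone 6982 genes passed (3502 higher, 3480 lower), and 375 genes of the lists against 242. At a fold over 2 there were 1047 genes (610 higher, 437 lower), 123 of the lists, and 293 higher and 166 lower genes shared with the second line, against 535 and 368. Genes more positive at day 10 than at day 7 ranged from 334 to 699 without 1 library, against 461. Col1a1, with 531 counts in EtOH replicate 2, had values from -4.25 to 0.39 and was reversed without that library. It was not called by limma-voom (-1.49) or in the fit of 6 libraries. A replicate block gave 2828 genes at day 7 (1384 higher, 1444 lower), 1474 and 1130 for the differences from days 5 and 10, and 2941 in the second line. The block took the call from Col1a1 (-2.59), and among the other named genes it changed no day-7 call. Not every library correlated best with its own number: replicates 3 did so both ways, replicates 2 did not. Of 145 named genes called at day 7, 131 were called under every alternative that tested them at the same threshold, 14 were lost under 1 or more, and 4 of 37 that were not called gained a call. The filter of 10 counts left 1 tuft gene called lower, against 10, since few members then remained to be tested. Genes with few counts have wide errors, and 3 libraries a group limit what can be called.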
